A study of Mus musculus with 4 samples.

Results

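The 46 genes described here act between the entry into mitosis and the separation of daughter cells, and they were taken by symbol from the 32285 mouse genes of the count matrices. They were set into 6 groups by role: chromosome structure and proliferation antigens (6 genes), kinetochore and spindle checkpoint (8 genes), the chromosomal passenger complex (3 genes), cyclins and entry kinases (6 genes), spindle motors and microtubule proteins (11 genes), and central spindle and cytokinesis (12 genes). A dividing cell condenses its chromosomes, attaches them to spindle microtubules through the kinetochores, and delays separation by the spindle checkpoint until all are attached. Cyclin-dependent and Aurora kinases drive these steps, and the central spindle and an actomyosin ring then cut the cell apart. Heart muscle cells of the mouse largely leave the cell cycle soon after birth, and many of them finish with a nuclear division that is not followed by cytokinesis, whereas the fibroblasts, vessel cells and macrophages of the heart can still divide.

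RNA was counted in single nuclei from whole hearts of wild-type mice at postnatal day 12. Pups had been injected at postnatal day 7 either with saline (control) or with an AAV9 vector carrying YAP5SA, a form of the transcriptional co-activator YAP that escapes inhibitory phosphorylation, under the cardiac troponin T promoter, which is active in cardiomyocytes. Over 5 days their mothers ate either chow or high-fat food (HFD). The 4 groups were control on chow, control on HFD, YAP5SA on chow and YAP5SA on HFD, with 1 library each. For 2 libraries (YAP5SA on chow and control on HFD) the sample title and the treatment label name opposite diets. The titles were used, and the diet of those 2 libraries is uncertain. Which libraries received YAP5SA does not depend on this conflict. If the treatment labels are right, however, every YAP5SA library differed from every control library in maternal diet as well. Diet could then not be told apart from YAP5SA in any comparison below, including those made within a diet. As the controls received saline, the virus and its cargo cannot be told apart. The matrices held 6977 to 11158 barcodes and 43408234 to 61191454 unique molecular identifiers (UMIs, 1 per captured RNA molecule) per library, and 6048 to 10009 nuclei per library were kept, with 11 to 34 barcodes shared between any pair of libraries. The YAP5SA library on chow held 260 UMIs of Xist and 3964 of Ddx3y, against 92725 to 132314 and 0 to 15 in the other libraries, so it differed from the other libraries in sex-linked RNA as well as in treatment; sex cannot be told apart from treatment in the chow pair, and the HFD values are given beside the chow values. The endogenous Yap1 row held 4816 and 5736 UMIs in the controls and 4641 and 5886 with YAP5SA.

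Nuclei were clustered without the 46 genes and without 60 other mitosis and 42 S phase genes, and clusters were named from marker genes; the names carry "-like" for that reason. The cardiomyocyte-like class held 3538 and 3013 control nuclei and 4774 and 5072 YAP5SA nuclei (chow and HFD in each case), and the fibroblast-like class held 1096, 2164, 1229 and 2304. The 14 cardiomyocyte markers, summed, stood at 52122 and 54816 counts per 1000000 UMIs (CPM) in control cardiomyocyte-like nuclei and at 32568 and 34669 CPM with YAP5SA. The 9 fibroblast markers stood at 5299 to 5722 CPM in fibroblast-like nuclei, and no marker of either list was at 0 in its class.

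The members share sequence features that played no part in choosing them. Promoter windows (250 bases before to 50 bases after the transcription start, RefSeq, GRCm38.p6) were found for 39 of the 46 genes; Smc4, Cdca2, Ska1, Aurkb, Incenp, Ccna2 and Tpx2 had no entry. The hexamer TTTGAA, the core of the cell cycle genes homology region through which the MuvB complexes are known to act, was present on either strand in the windows of 31 of 39 genes (79.5%), against 20.2% of the 27025 genes in the table. The box CCAAT, known to be bound by NF-Y, was present for 27 of 39 (69.2%) against 41.1%, and both together in 1 window for 23 of 39 (59.0%) against 7.97%. The element CATTCC, the usual target of the TEAD factors with which YAP acts, was present for 3 of 39 (7.69%) against 16.6%. These are matches of letters, counted on both strands, and no match of one motif overlapped a match of another in the members' windows. The windows of 4 genes to which the results below return are shown to place these letters, 5′ to 3′ on the gene's own strand, with TTTGAA and CCAAT (or their reverse complements TTCAAA and ATTGG) in capitals. They lie at chr11:99024140-99024439 for Top2a, chr3:27153829-27154128 for Ect2, chr9:22389157-22389456 for Anln and chr14:87141175-87141474 for Diaph3, all on the minus strand.
Top2a: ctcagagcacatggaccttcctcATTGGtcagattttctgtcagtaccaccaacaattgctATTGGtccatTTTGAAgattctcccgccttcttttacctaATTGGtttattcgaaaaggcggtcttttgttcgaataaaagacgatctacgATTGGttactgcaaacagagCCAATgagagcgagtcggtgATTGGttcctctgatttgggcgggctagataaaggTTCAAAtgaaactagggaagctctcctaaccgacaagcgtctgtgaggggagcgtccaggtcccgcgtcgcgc
Ect2: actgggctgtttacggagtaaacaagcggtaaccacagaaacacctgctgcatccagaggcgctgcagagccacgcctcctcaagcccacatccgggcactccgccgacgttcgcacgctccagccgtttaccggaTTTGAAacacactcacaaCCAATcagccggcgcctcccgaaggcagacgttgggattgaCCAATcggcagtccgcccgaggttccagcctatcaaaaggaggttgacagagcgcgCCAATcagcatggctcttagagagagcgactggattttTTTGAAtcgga
Anln: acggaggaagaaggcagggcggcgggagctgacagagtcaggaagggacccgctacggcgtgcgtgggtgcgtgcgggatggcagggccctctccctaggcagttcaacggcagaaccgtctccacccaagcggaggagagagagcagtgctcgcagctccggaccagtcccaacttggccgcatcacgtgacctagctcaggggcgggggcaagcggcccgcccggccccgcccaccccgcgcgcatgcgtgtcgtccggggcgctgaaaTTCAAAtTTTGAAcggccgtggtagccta
Diaph3: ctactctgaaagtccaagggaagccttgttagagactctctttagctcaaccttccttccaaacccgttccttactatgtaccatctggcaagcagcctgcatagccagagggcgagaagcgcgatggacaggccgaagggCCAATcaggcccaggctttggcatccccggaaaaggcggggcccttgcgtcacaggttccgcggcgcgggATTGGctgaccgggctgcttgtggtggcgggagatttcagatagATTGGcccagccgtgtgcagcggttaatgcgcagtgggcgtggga
The Top2a window holds TTTGAA in 2 places and CCAAT in 6, Ect2 holds 2 and 3, and Anln holds 2 and none. Diaph3, the only one of the 46 genes called higher in the summed RNA of cardiomyocyte-like nuclei, holds CCAAT in 3 places and no TTTGAA. There, 7 other members also lack TTTGAA (Cenpe, Nuf2, Bub1, Birc5, Ccnb1, Nusap1 and Cit).

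Which nuclei carried mitotic RNA was asked first. Each nucleus with at least 1500 UMIs was thinned to 1500 UMIs, and a nucleus with UMIs of at least 3 of the 46 genes was called multi-positive; shares are given with exact 95% Clopper-Pearson intervals, which cover counting error only, since each group is 1 library. In fibroblast-like nuclei the share was 8.08% (6.52 to 9.87) in the control on chow and 6.12% (5.14 to 7.22) in the control on HFD, and 28.0% (25.4 to 30.6) and 27.9% (26.05 to 29.8) in the YAP5SA libraries. The ratio of YAP5SA to control was 3.46 (2.73 to 4.43) on chow and 4.56 (3.77 to 5.55) on HFD. In cardiomyocyte-like nuclei, the cells in which the promoter is active, the share was 4.21% (3.57 to 4.93) and 3.27% (2.66 to 3.97) in the controls and 7.82% (7.07 to 8.62) and 4.65% (4.08 to 5.27) with YAP5SA, ratios of 1.86 (1.53 to 2.26) and 1.42 (1.12 to 1.82). In the cardiomyocyte-like class on HFD the interval included 1 with a limit of at least 5 genes (1.28, 0.975 to 1.69) and with the cell cycle genes kept in clustering (1.24, 0.989 to 1.56).

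Macrophage-like nuclei went the same way, and the vessel lining and heart surface the other way. Multi-positive macrophage-like nuclei made up 13.4% (7.33 to 21.8) and 19.4% (13.9 to 25.99) in the controls and 31.8% (25.1 to 39.2) and 37.0% (32.8 to 41.4) with YAP5SA. In endothelial-like nuclei the share was 11.1% (8.13 to 14.7) and 12.9% (10.3 to 15.9) in the controls and 4.96% (2.91 to 7.82) and 6.73% (4.31 to 9.92) with YAP5SA, ratios of 0.446 (0.238 to 0.801) and 0.521 (0.312 to 0.839). With the stricter nucleus filter the ratio on chow was 0.772 (0.272 to 2.20), on 9 multi-positive nuclei in each library, and at least 2 genes or 3000 UMIs also gave intervals that include 1 on both diets. Endocardial-like nuclei, which line the chambers, gave ratios of 0.520 (0.279 to 0.982) and 0.364 (0.224 to 0.575), and epicardial-like nuclei, from the outer layer, 0.236 (0.0849 to 0.615) and 0.357 (0.107 to 0.949) on 5 to 25 multi-positive nuclei per library. The endocardial-like interval on chow and the epicardial-like interval on HFD included 1 under several alternatives, at least 2 genes and 3000 UMIs among them. Pericyte-like nuclei had the highest control shares, 22.8% (16.5 to 30.1) and 21.5% (16.3 to 27.4), and ratios of 0.770 (0.422 to 1.37) and 0.549 (0.330 to 0.895), so that on chow the interval includes 1.

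**Figure D1:**
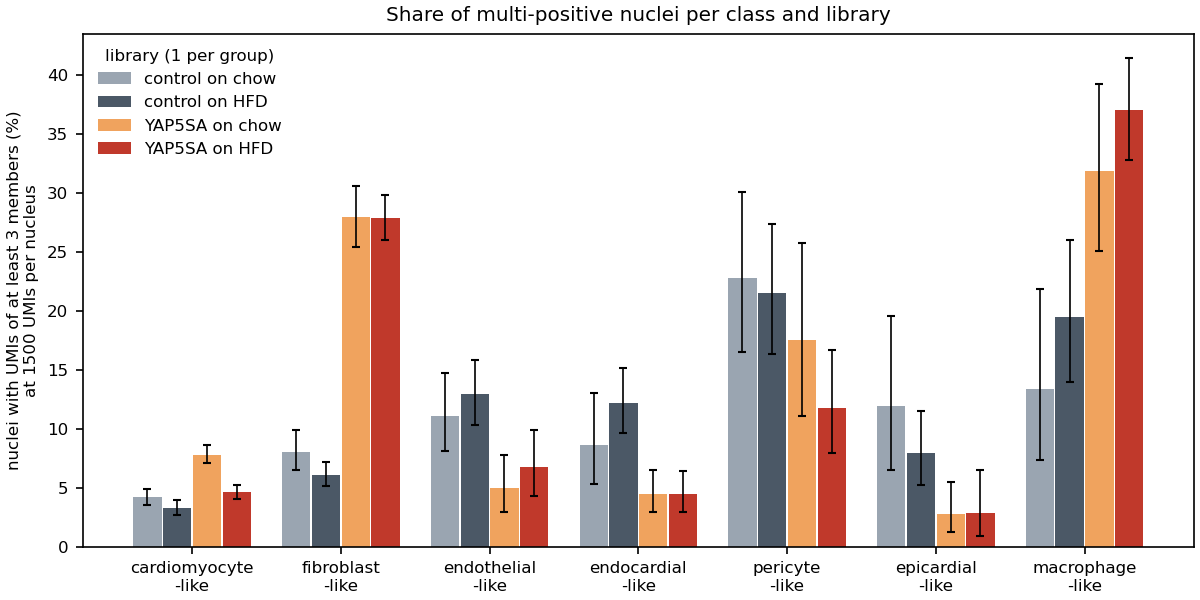
Share of nuclei (percent, vertical axis) with UMIs of at least 3 of the 46 genes after thinning to 1500 UMIs, for 7 classes; bars are single libraries and lines are exact 95% binomial intervals, which cover counting error only. Both YAP5SA bars stand above both control bars in the cardiomyocyte-like class (4.65 and 7.82% against 3.27 and 4.21%), the fibroblast-like class (27.9 and 28.0% against 6.12 and 8.08%) and the macrophage-like class (31.8 and 37.0% against 13.4 and 19.4%).

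Thinning left out 24, 16, 27 and 37 cardiomyocyte-like and 19, 39, 38 and 60 fibroblast-like nuclei with fewer than 1500 UMIs (control on chow, control on HFD, YAP5SA on chow, YAP5SA on HFD). Without thinning the cardiomyocyte-like shares were 8.68, 8.16, 16.1 and 12.6% in that order. In cluster 4, the largest cardiomyocyte-like cluster (median 4402 UMIs before thinning), 0.469, 0.688, 0.107 and 0.503% of nuclei were multi-positive after thinning to 1500 UMIs. These cluster shares compare with the thinned class shares above, and not with those without thinning. The limit of 3 genes was a choice, with nuclei on either side of it. Whether nuclei with few and with many of the genes differ in kind was not tested. Just below the limit, 58, 68, 177 and 154 cardiomyocyte-like nuclei had exactly 2 of the genes. Just above it, 14, 19, 88 and 64 had 3 to 4. Further up, 28, 9, 90 and 49 had 5 to 9, whereas 106, 70, 193 and 121 had 10 or more. In every library more nuclei had 10 or more than had 3 to 4 or 5 to 9. In fibroblast-like nuclei 36, 63, 144 and 314 had 10 or more of the genes.

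**Figure D2:**
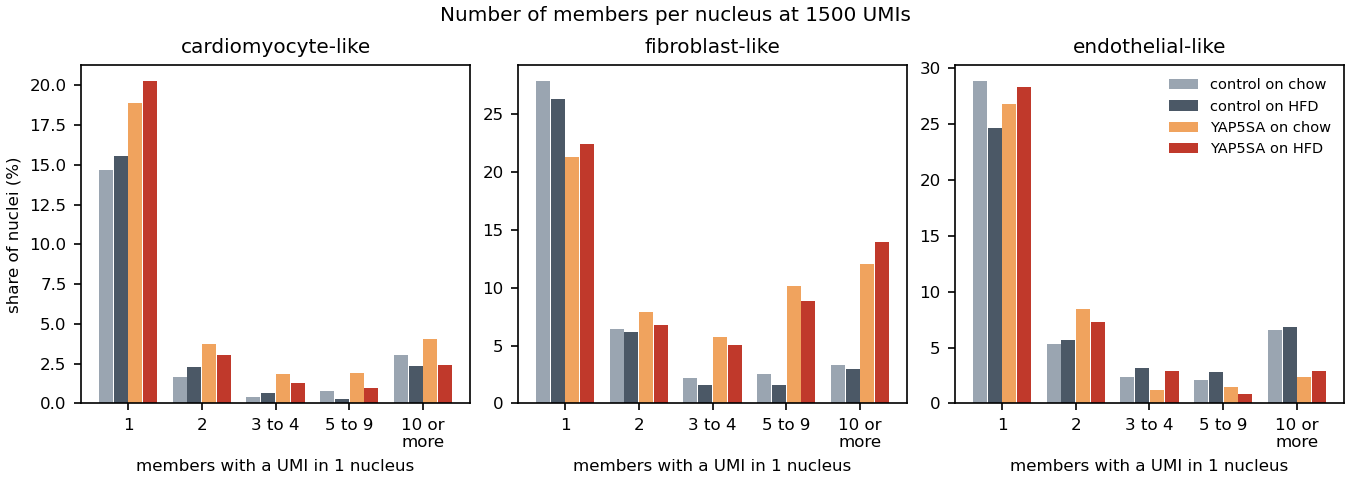
Share of nuclei (percent, vertical axis) with UMIs of 1, 2, 3 to 4, 5 to 9, or 10 or more of the 46 genes (horizontal axis) after thinning to 1500 UMIs, by library and class; nuclei with none are not drawn. In the cardiomyocyte-like panel 193 of 4747 and 121 of 5035 YAP5SA nuclei had 10 or more of the genes, against 106 of 3514 and 70 of 2997 control nuclei.

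The multi-positive cardiomyocyte-like nuclei of control and YAP5SA hearts did not fall into the same clusters. In the controls, cluster 3 held 89.9 and 83.7% of them; this cluster had 9 and 2 YAP5SA nuclei of sufficient depth. In the YAP5SA libraries, cluster 26 held 65.5 and 67.5% and cluster 19, led by Cemip, Ptchd4, Pak3 and Sema3e, held 21.0 and 20.1%; neither cluster had a control nucleus. Almost every nucleus of cluster 26 was multi-positive (96.8 and 98.1%), but only 5.23 and 5.38% of cluster 19. Clusters 19 and 26 are named on few cardiomyocyte markers (5 and 6 of 14). Leaving them out gave ratios of YAP5SA to control of 0.395 on chow and 0.222 on HFD, but this takes most multi-positive nuclei from the YAP5SA libraries and leaves the controls' cluster 3 in, so lower ratios follow from the choice of clusters and are no test of the difference. Multi-positive nuclei of the class had a median of 297 and 333 cardiomyocyte-marker UMIs per 10000 in the controls and 149 and 124 with YAP5SA, against 528, 557, 362 and 391 in the other nuclei of the class; their median was 0 for endothelial and for macrophage markers, and 1.30 to 2.13 for fibroblast markers. Their median depth was higher than that of the other nuclei in every library (6573 to 8305 against 4854 to 5964 UMIs); its part in the shares before thinning was not tested.

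A list of 6 genes chosen on these data as higher with YAP5SA in cardiomyocytes (Cemip, Ptchd4, Sema3e, Vgll3, Wwc1, Hs6st2) was used to divide the YAP5SA cardiomyocyte-like nuclei. Of those with a UMI of any of the 6 genes, 13.2% (11.7 to 14.7; 262 of 1990) were multi-positive on chow and 12.5% (10.6 to 14.5; 139 of 1115) on HFD. Of those without, 3.95% (3.26 to 4.75; 109 of 2757) and 2.42% (1.97 to 2.95; 95 of 3920) were, beside 4.21 and 3.27% of all control nuclei of the class. Since the 6 genes were chosen on these data, and Cemip, Ptchd4 and Sema3e are among the leading genes of cluster 19, this division is a description. With Diaph3 left out of the count the shares were 12.1 and 11.2% with a response gene and 3.70 and 2.22% without. The contrast depended on the division. With all members counted, single genes on chow ranged from Cemip (8.61% with a UMI, 7.63% without) to Hs6st2 (17.8 and 5.97%). YAP5SA nuclei on chow with 3 or more of the 6 genes gave 11.3%, against 7.06% of the others.

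Summed RNA of each class was then tested, with the 2 control and the 2 YAP5SA libraries as replicates and both diets together (edgeR quasi-likelihood test, Benjamini-Hochberg adjusted over all genes tested, threshold 0.05). Nothing in the labels says how many animals a library holds, so p-values measure the spread between these libraries. In fibroblast-like sums 43 of the 46 genes rose and none fell, where 6.63% of all 15313 genes rose and 5.49% fell; the median change was 1.49 on the log2 scale for the 46 genes and 0.01 for all genes. The fibroblast-like class was made up of different clusters in the 2 arms. Cluster 2 held 719 and 1344 control against 46 and 140 YAP5SA nuclei (chow and HFD), and cluster 1 held 106 and 206 against 803 and 1400. Cluster 11 held 56 and 89 against 251 and 521. Of the multi-positive fibroblast-like nuclei, cluster 11 held 59.8 and 54.6% in the controls and 71.8 and 78.3% with YAP5SA. The part of these differences in the result was not tested. In cardiomyocyte-like sums 1 gene rose, Diaph3, and none fell, where 7.94% of 16893 genes rose and 4.37% fell; the median change was 0.02, against 0.04 for all genes. The difference between the 2 classes in their change, tested within libraries, was called for 41 of 46 genes, all with the smaller change in cardiomyocyte-like sums (of 16484 genes, 6.24% were lower and 7.16% higher), and the median was -1.51. Smc4, Ccna2, Plk1, Ect2 and Diaph3 did not pass that test. Fewer genes passed without the control library on chow and without the control library on HFD, with medians of -1.46 and -1.52.

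Within each diet, as the titles name it, 1 library stands against 1 and no test can be made. The counts of genes at least 2-fold apart were taken over genes with a mean of at least 10 CPM. In fibroblast-like sums 39 of 44 genes were at least 2-fold higher with YAP5SA on chow, where 5.70% of all such genes were, and 43 of 44 on HFD, where 7.63% were. None was 2-fold lower, where 3.73 and 2.43% of all such genes were. In cardiomyocyte-like sums 1 of 28 genes was 2-fold higher on each diet, Diaph3, where 8.52 and 10.8% of all such genes were, and none was 2-fold lower, where 7.02 and 3.62% were.

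**Figure D3:**
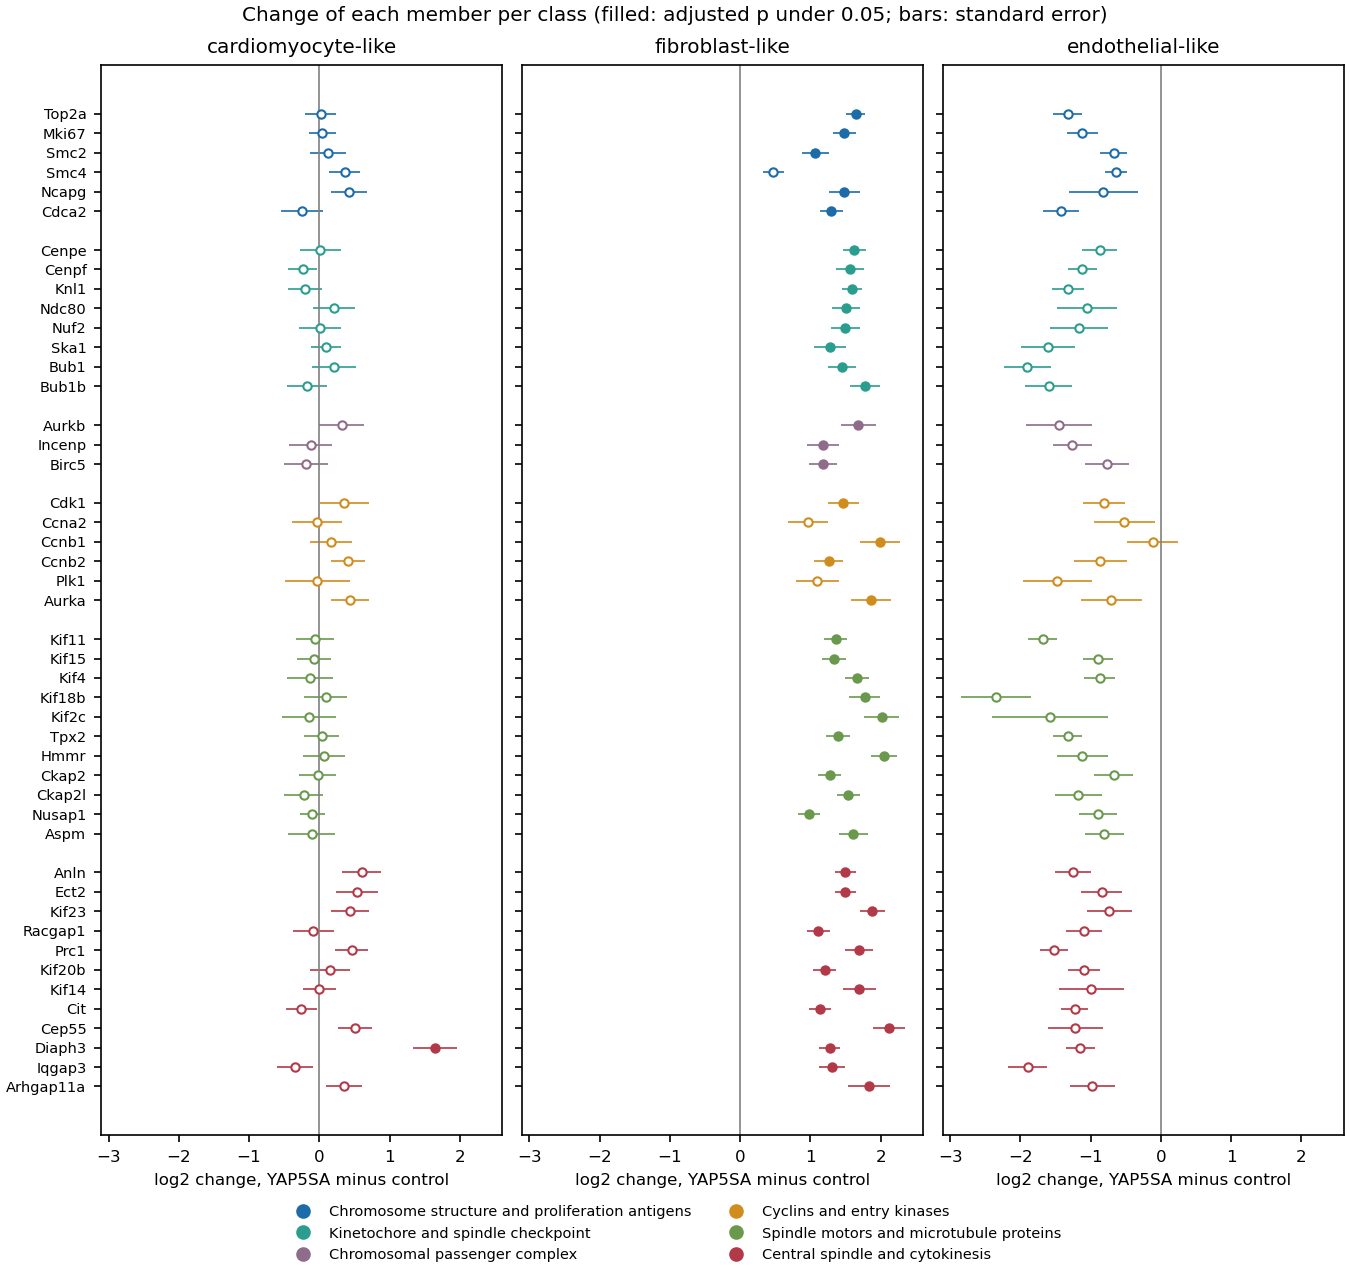
Change of each of the 46 genes (log2, YAP5SA minus control, horizontal axis) in summed RNA of cardiomyocyte-like, fibroblast-like and endothelial-like nuclei; points are edgeR estimates over 2 libraries per arm, bars are standard errors, filled points have an adjusted p under 0.05, and colours mark the role groups. Fibroblast-like points lie between 0.47 and 2.12, cardiomyocyte-like points lie between -0.35 and 0.60 except Diaph3 at 1.64, and all endothelial-like points lie below 0.

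Of the 6 genes of chromosome structure, 5 rose in fibroblast-like sums and none in cardiomyocyte-like sums. Top2a, the topoisomerase that untangles sister chromatids, stood at 85.6 and 78.1 CPM in control fibroblast-like nuclei (chow, HFD) and at 257 and 297 CPM with YAP5SA. Both YAP5SA values lay above both controls, and Top2a rose by 1.64 ± 0.14 (SE) on the log2 scale (edgeR adjusted p = 0.00118). In cardiomyocyte-like nuclei it stood at 60.5 and 51.6 CPM in the controls and 66.9 and 51.3 CPM with YAP5SA, and the libraries overlapped (log2 change 0.02 ± 0.22, adjusted p = 0.97). Mki67, the Ki-67 antigen that coats mitotic chromosomes, showed the same split, at 38.9, 32.7, 98.5 and 118 CPM in fibroblast-like nuclei and 27.7, 21.6, 26.9 and 26.2 CPM in cardiomyocyte-like nuclei (control chow, control HFD, YAP5SA chow, YAP5SA HFD, an order kept for all runs of 4 values). Smc4, a condensin core subunit that is also present in cells between divisions, was 1 of the 3 genes that did not pass in the fibroblast-like test: 156, 121, 205 and 210 CPM, a log2 difference of 0.47 ± 0.15 (adjusted p = 0.0805). The condensin genes Smc2 and Ncapg and the chromosome-bound Cdca2 rose in fibroblast-like sums, by 1.07, 1.48 and 1.30.

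All 8 kinetochore and checkpoint genes rose in fibroblast-like sums, by 1.28 to 1.78, and none changed in cardiomyocyte-like sums, where their values lay between -0.23 and 0.21. Knl1, the scaffold on which the checkpoint proteins assemble, stood at 47.0, 42.8, 143 and 151 CPM in fibroblast-like nuclei and rose by 1.60 ± 0.14 (adjusted p = 0.00132). The same gene stood at 36.8, 32.0, 36.2 and 25.9 CPM in cardiomyocyte-like nuclei, where the YAP5SA values lay within or below the controls. Cenpf, a large kinetochore protein, stood at 44.9, 33.3, 105 and 144 CPM in fibroblast-like nuclei and 39.9, 31.0, 33.5 and 29.4 CPM in cardiomyocyte-like nuclei. Cenpe, the kinetochore motor that moves chromosomes to the spindle equator, rose by 1.63 and the checkpoint kinase homologue Bub1b by 1.78 in fibroblast-like sums.

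The chromosomal passenger complex places the kinase Aurora B on centromeres and later on the central spindle. Its scaffold Incenp stood at 26.1, 16.5, 53.8 and 49.2 CPM in fibroblast-like nuclei and rose by 1.18 ± 0.23 (adjusted p = 0.0146), while cardiomyocyte-like nuclei gave 11.6, 8.83, 11.6 and 7.82 CPM. Birc5, the survivin subunit, stood at 17.6, 13.3, 34.5 and 40.2 CPM in fibroblast-like nuclei, a rise of 1.18 ± 0.20 (adjusted p = 0.00952), and at 14.4, 9.61, 13.1 and 8.76 CPM in cardiomyocyte-like nuclei. All 3 genes of the complex rose in fibroblast-like sums and none in cardiomyocyte-like sums; without the control library on HFD, Incenp and Birc5 no longer passed (adjusted p = 0.0732 and 0.0649).

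Among cyclins and entry kinases, 4 of 6 rose in fibroblast-like sums and none in cardiomyocyte-like sums. Cdk1, the kinase that starts mitosis, stood at 11.2, 11.3, 39.0 and 29.2 CPM in fibroblast-like nuclei (rise of 1.47 ± 0.22, adjusted p = 0.00584) and at 8.61, 5.51, 11.3 and 7.37 CPM in cardiomyocyte-like nuclei. Its partner cyclin Ccnb2 stood at 10.5, 10.4, 24.1 and 30.5 CPM in fibroblast-like nuclei (rise of 1.26 ± 0.21, adjusted p = 0.00777) and at 6.73, 5.75, 7.93 and 9.53 CPM in cardiomyocyte-like nuclei; in the latter both YAP5SA values were above both controls, at a log2 difference of 0.41 ± 0.24 that did not pass (adjusted p = 0.307). Ccna2 and the polo kinase gene Plk1 were the other genes short of the threshold in fibroblast-like sums, at 0.97 and 1.10, on 17 to 106 UMIs per library. Ccnb1 and Aurka rose there by 1.99 and 1.86.

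Of the spindle motors and microtubule proteins, 11 of 11 rose in fibroblast-like sums, by 0.98 to 2.05, and cardiomyocyte-like values lay between -0.22 and 0.09 with none called. Kif11, the motor that pushes the spindle poles apart, stood at 36.8, 31.1, 96.1 and 91.9 CPM in fibroblast-like nuclei and at 25.1, 22.3, 28.6 and 18.6 CPM in cardiomyocyte-like nuclei. Kif15, which works beside it, stood at 47.0, 37.5, 121 and 109 CPM and at 23.7, 21.5, 25.8 and 18.8 CPM. In both cases the fibroblast-like groups were apart and the cardiomyocyte-like groups overlapped. Hmmr (2.05 ± 0.18) and the microtubule-depolymerizing motor Kif2c (2.02 ± 0.25) had the largest rises of the group, followed by Kif18b at 1.77 and the chromokinesin Kif4 at 1.67; Ckap2l rose by 1.54 and the spindle assembly factor Tpx2 by 1.39.

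All 12 central spindle and cytokinesis genes rose in fibroblast-like sums, and 1 of the 12 rose in cardiomyocyte-like sums, where the median of the group was 0.39 and that of the cyclins and entry kinases 0.26. Diaph3 (chr14:86655367-87141235, minus strand, GENCODE vM21 on GRCm38) encodes a formin that builds the actin filaments of the contractile ring. It stood at 47.7 and 36.3 CPM in control cardiomyocyte-like nuclei and at 171 and 101 CPM with YAP5SA, and the groups did not overlap. The rise was 1.64 ± 0.31 on the log2 scale (edgeR adjusted p = 0.0242), made up of 1.84 on chow and 1.47 on HFD. At equal depth, 4.21, 3.34, 11.3 and 6.55% of cardiomyocyte-like nuclei had a Diaph3 UMI. In fibroblast-like nuclei Diaph3 stood at 252, 198, 596 and 582 CPM and rose by 1.27 ± 0.15 (adjusted p = 0.0028). Its change did not differ between the 2 classes beyond the spread (difference 0.22 ± 0.26, adjusted p = 0.627). Without clusters 19 and 26, and with the controls' cluster 3 left in, the cardiomyocyte-like value of Diaph3 was -0.60 (adjusted p = 0.385).

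The other cytokinesis genes did not pass the test in cardiomyocyte-like sums. Anln, the anillin scaffold of the cleavage furrow, stood at 32.3, 27.7, 57.9 and 36.7 CPM in cardiomyocyte-like nuclei, both YAP5SA values above both controls, at 0.60 ± 0.28 (adjusted p = 0.204); without the YAP5SA library on HFD it passed (adjusted p = 0.0287). Ect2, the exchange factor that switches on RhoA at the cell equator, stood at 53.9, 33.7, 78.4 and 53.0 CPM, where the groups overlapped by a narrow margin (0.54 ± 0.30, adjusted p = 0.289). Prc1, which bundles the antiparallel microtubules of the central spindle, stood at 29.9, 25.3, 45.3 and 33.6 CPM (0.46 ± 0.23, adjusted p = 0.247). In fibroblast-like nuclei the same genes stood at 39.7, 36.8, 122 and 113 CPM (Anln), 30.2, 28.1, 83.8 and 94.3 CPM (Ect2), and 43.2, 40.4, 114 and 179 CPM (Prc1), all rising with adjusted p of 0.00177 to 0.00287. Cep55, the abscission scaffold, had the largest rise of all 46 genes in fibroblast-like sums at 2.12 ± 0.23, and Kif23, a motor of the centralspindlin complex, rose by 1.88. Iqgap3 and Cit, the citron kinase gene of the midbody, gave -0.35 and -0.26 in cardiomyocyte-like sums, neither called.

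**Figure D4:**
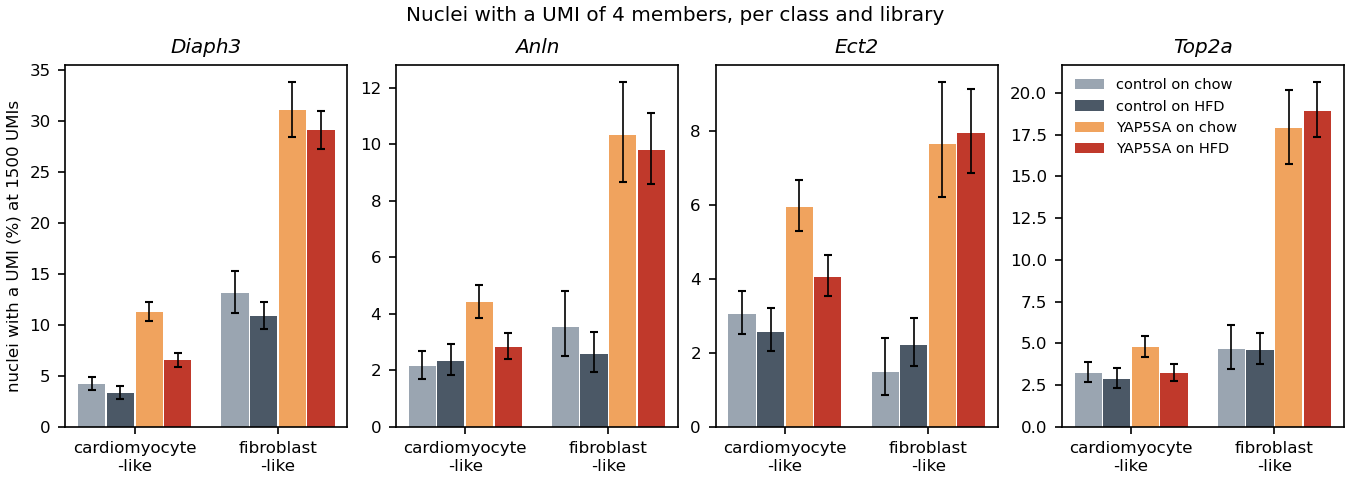
Share of nuclei (percent, vertical axis, a scale of its own in each panel) with a UMI of Diaph3, Anln, Ect2 or Top2a after thinning to 1500 UMIs, in cardiomyocyte-like and fibroblast-like nuclei; bars are single libraries and lines are exact 95% binomial intervals. In cardiomyocyte-like nuclei Diaph3 separates YAP5SA from control on both diets (11.3 and 6.55% against 4.21 and 3.34%), whereas Top2a on HFD does not (3.24 against 2.87%). On chow 227 of 4747 YAP5SA and 113 of 3514 control nuclei had a Top2a UMI. Of the 46 genes, 8 on chow and 5 on HFD had a YAP5SA interval above that of the control in this class, and 0 had one below. The same count over all genes was not taken.

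The mixture of these RNAs within multi-positive nuclei was described next, without a test. For each gene, nuclei with UMIs of at least 3 of the other 45 genes were taken. Of these, 59.2 and 55.4% of the control cardiomyocyte-like nuclei had a Diaph3 UMI, against 73.2 and 69.3% with YAP5SA. For Top2a the shares went the other way, 69.6 and 71.0% against 53.4 and 55.7%, and for Knl1 they were 60.5 and 60.4% against 36.1 and 30.2%. In the remaining cardiomyocyte-like nuclei Top2a was found in 0.297, 0.689, 0.820 and 0.728% and Diaph3 in 1.90, 1.69, 6.47 and 3.79%. So Diaph3 was more frequent with YAP5SA also outside the nuclei rich in mitotic RNA. Of the UMIs left after thinning, the rich nuclei held 65.3, 55.5, 59.2 and 57.6% for Diaph3, where the arms overlapped. For Top2a they held 96.0, 88.7, 89.9 and 88.1%. The cytokinesis group made up 31.2 and 31.0% of all UMIs of the 46 genes in multi-positive control cardiomyocyte-like nuclei and 42.0 and 40.8% with YAP5SA; without Diaph3 the shares were 27.8, 27.4, 34.1 and 34.1%. In multi-positive fibroblast-like nuclei they were 38.1, 37.2, 37.5 and 37.4% with Diaph3. Each multi-positive cardiomyocyte-like nucleus carried on average 19.8 and 17.8 UMIs of the 46 genes in the controls and 13.5 and 14.5 with YAP5SA at 1500 UMIs per nucleus.

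**Figure D5:**
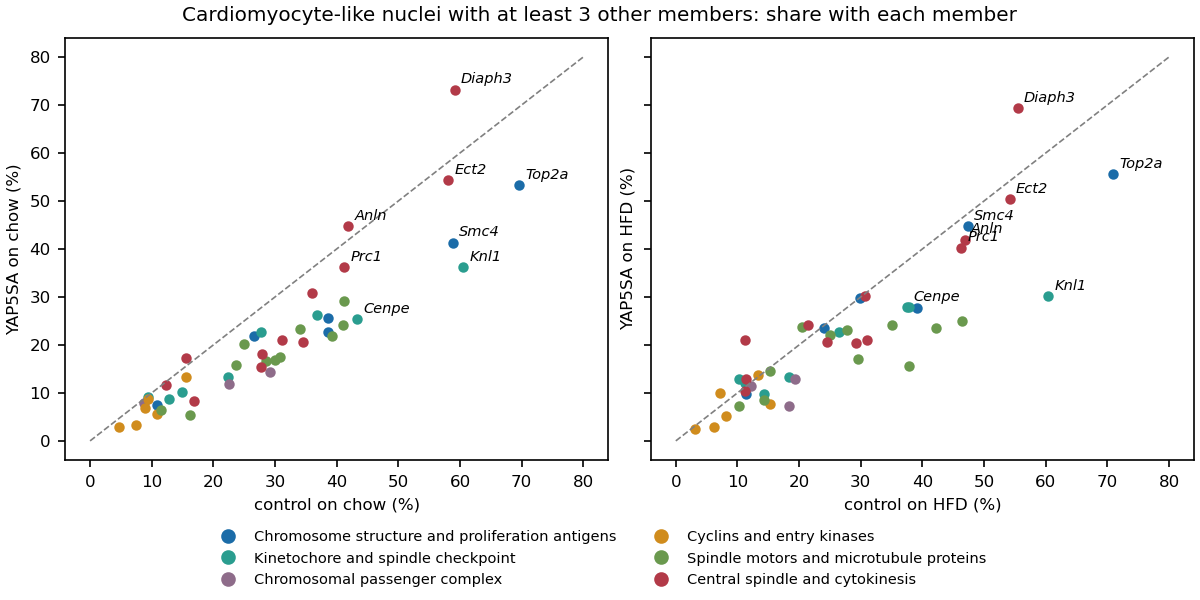
Cardiomyocyte-like nuclei with UMIs of at least 3 other genes of the 46: share (percent) that also had a UMI of the plotted gene, control on the horizontal and YAP5SA on the vertical axis, chow at left and HFD at right; points are genes, coloured by role group, and the dashed line marks equal shares. Diaph3 lies above the line on both diets (73.2 against 59.2%, 69.3 against 55.4%), and Top2a and Knl1 lie below it.

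Genes of other lists placed the 46 genes within the cell cycle. Of 60 further mitosis genes, 51 rose and none fell in fibroblast-like sums (median 1.28), and in cardiomyocyte-like sums none rose and 1 fell (median 0.15), the condensin gene Ncapd2 (-0.89 ± 0.20, adjusted p = 0.0401). Plk4, which starts centriole duplication, and Cenpa, the centromeric histone, came next at 0.93 (adjusted p = 0.0524) and -0.81 (adjusted p = 0.0606). Of 42 genes of DNA replication and S phase, 26 rose in fibroblast-like sums (median 0.92) and none was called in cardiomyocyte-like sums (median 0.53, with 35 of 42 above 0); among them, Ung, the uracil glycosylase gene, stood at -1.20 (adjusted p = 0.0549) and Atad2 at 0.80 (adjusted p = 0.0898). UMIs of at least 3 S phase genes were present in 49.3, 41.8, 45.3 and 52.6% of multi-positive cardiomyocyte-like nuclei and in 3.62, 1.93, 5.60 and 2.69% of the others. In fibroblast-like nuclei these shares were 79.3, 69.2, 72.1 and 66.6% against 8.79, 6.22, 21.9 and 15.5%.

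Over both diets together, endothelial-like sums gave lower values with YAP5SA for every gene, none of which passed the test. On chow alone 46 genes stood lower, and on HFD alone 43 stood lower and 3 higher (log2 at most 0.30). Prc1 stood at 99.0 and 80.8 CPM in the controls and 31.6 and 32.6 CPM with YAP5SA, Kif11 at 77.7, 68.3, 22.7 and 23.8 CPM, and Top2a at 172, 140, 53.6 and 74.8 CPM; for these genes the groups did not overlap. All 46 log2 values over both diets were below 0, with a median of -1.12 against 0.02 for all genes. With the stricter nucleus filter 25 of the genes could be tested, with a median of -0.71 and 1 value above 0. None of the 25 was called, where 45 of 7416 genes were higher and 39 lower. No member passed the adjusted threshold in edgeR (0.00909% of 11000 genes were higher and 0% lower). In that test 38 of 46 had an unadjusted p under 0.05, a count that was not taken over all genes. DESeq2 called 6 members lower, where 47 of 11000 genes were lower and 45 higher. The median of the members was -0.985 without the control on chow and -1.25 without the control on HFD. It was -1.05 without the YAP5SA library on chow and -1.34 without that on HFD. Within a diet, of the 42 genes with a mean of at least 10 CPM, 30 were at least 2-fold lower with YAP5SA on chow and 15 on HFD, where 2.83 and 2.52% of all such genes were; none was 2-fold higher, where 3.58 and 5.90% of all such genes were. The difference between endothelial-like and fibroblast-like change, a test added after the values were seen, was called for 45 of 46 genes, all lower (median -2.59; 3.28% of 13536 genes were lower and 1.92% higher), with Ccna2 as the exception (-1.47, adjusted p = 0.131). Macrophage-like nuclei, with 387587 to 1900687 UMIs per library, were not tested: Top2a stood at 72.2, 179, 287 and 408 CPM there. The make-up of that class differed between the arms, with 13 and 13 control against 103 and 143 YAP5SA nuclei in cluster 9, led by Ccr2, and its summed cardiomyocyte markers stood at 12013, 3040, 1344 and 1552 CPM; their part in the values was not tested.

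Levels were last compared between classes within libraries, over control and YAP5SA libraries together. The test held no term for YAP5SA, although the change with YAP5SA differed between the 2 classes for 41 of the 46 genes. Its values therefore mix both arms and do not describe the controls alone. Relative to all genes, 10 of the 46 were lower in cardiomyocyte-like than in fibroblast-like sums and none higher (of 16484 genes, 30.8% were lower and 28.5% higher); the median of the 46 genes was -0.72, and Diaph3 stood lowest at -1.74 ± 0.16. Scaling by library size alone moved the median of all genes from -0.05 to -0.60 and the count to 35 lower. With that scaling 8836 of the 16484 genes were lower and 2870 higher. Libraries were also left out 1 at a time. Without the control library on chow the median of the 46 genes was -0.99 and more genes were called lower. The median was -0.56 without the YAP5SA library on chow and -0.37 without that on HFD, and fewer genes were called lower each time. Without the YAP5SA library on HFD 10 of the 46 genes lay above 0. With every library kept, Ect2 was the only gene with a value above 0 (0.59 ± 0.28, edgeR adjusted p = 0.119).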

How the data were processed

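Single-nucleus RNA was captured with 10x chemistry and counted with Cell Ranger 7.1.0 on mm10, per the submitters' processing notes; the deposited values are raw UMI counts per gene and nucleus, 1 matrix per library. Nuclei with at least 500 genes and at most 5% mitochondrial UMIs were kept (scanpy 1.11.5, Python 3.11.15). Doublets were removed by scrublet scores: by the automatic threshold in both HFD libraries (4.51% and 6.68%), and by the top scores (5.10% and 6.93%) in both chow libraries, where it marked 0.0785% and 0.0115%. Clusters came from 3000 variable genes, 30 principal components, 15 neighbours and Leiden resolution 1, leaving out the cell cycle genes. Clusters were named from marker lists by limits set after seeing the data. Counts were summed per class and library and tested with edgeR 4.0.16 (R 4.3.3; quasi-likelihood, TMM, Benjamini-Hochberg); DESeq2 1.42.0 was an alternative. On simulated counts the cardiomyocyte-like test recovered 72%, the fibroblast-like test 62% and the endothelial-like test 53% of 2-fold changes. Differences in change from fibroblast-like sums were recovered at 13% (cardiomyocyte-like) and 20% (endothelial-like). The simulation gave every gene the same spread between libraries and held no diet or sex effect, so recovery in the real data can differ. Genes named in full were the 2 with the most UMIs in each role and up to 20 past the threshold by adjusted p; others named were chosen after their values were seen. The members and lists were chosen with earlier results of these data known.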

Additional observations from a re-analysis of the deposited data

Results flagged for a closer look

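The change with YAP5SA differed between cardiomyocyte-like and fibroblast-like sums for 41 of the 46 genes, and between endothelial-like and fibroblast-like sums for 45, all lower than in fibroblast-like sums (edgeR interaction tests). Among nuclei of clusters that were given no name, which entered none of the tests, 46.04% were multi-positive in the YAP5SA library on chow and 43.0% in that on HFD, against 21.8% and 26.3% in the controls. Without thinning the ratios of these shares were 1.08 (0.878 to 1.34) on chow and 1.09 (0.928 to 1.27) on HFD, against 2.11 and 1.63 with it. The largest unnamed cluster, 14, had 2.34 times its libraries' median depth.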

How the results depend on the processing

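With 2 libraries per arm, calls depend on single libraries. Leaving out 1 library in turn gave 1 to 2 genes higher in cardiomyocyte-like sums, 38 to 45 in fibroblast-like sums, 0 to 19 lower in endothelial-like sums, 17 to 41 with a smaller change in cardiomyocyte-like than fibroblast-like sums, 44 to 45 for endothelial-like against fibroblast-like sums, and 5 to 16 lower and 0 to 1 higher in the comparison of levels. The alternative without clusters 19 and 26 was chosen after seeing the data. It removes the YAP5SA libraries' cycling nuclei but keeps the controls' cluster 3, so that lower values follow from its construction. With it, 0 genes rose and 31 fell in cardiomyocyte-like sums, where 331 of 16268 genes rose and 184 fell. The ratios of multi-positive shares were 0.395 and 0.222. The log2 changes were -2.64 for Top2a, -1.77 for Prc1, -0.60 for Diaph3, -2.23 for Hmmr and -2.54 for Kif23. They were -2.04 for Anln, -2.66 for Cenpe, -2.29 for Cep55, -1.28 for Mki67 and -2.51 for Tpx2. In endothelial-like sums 30 genes were lower with no filter on low counts, 6 with DESeq2 and 13 with cell cycle genes kept in clustering. Resolution 2 gave 6 and a diet term 1. Of all genes tested, 318 of 20205, 47 of 11000, 66 of 10822, 61 of 10864 and 4 of 11000 were lower, in that order. Library size alone gave 35 lower levels, where 8836 of 16484 genes were lower. At 3000 UMIs the ratio on HFD was 1.84 in cardiomyocyte-like, 3.72 in fibroblast-like and 0.841 in endothelial-like nuclei. With at least 2 genes it was 2.48 and 2.82 in fibroblast-like, 0.818 on chow in endothelial-like and 0.603 on HFD in endocardial-like nuclei. Without thinning it was 2.29 and 2.36 in fibroblast-like nuclei, and with the stricter filter 0.191 on HFD in endocardial-like nuclei. The causes of these shifts were not tested. The libraries carry no replicate numbers that pair them. With diet as a block, from the titles, 1 of the 46 genes rose in cardiomyocyte-like sums, where 1207 of 16893 genes rose. In fibroblast-like sums 43 rose, where 1188 of 15313 genes did.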
